A study of Mus musculus with 16 samples.

Results

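The mitochondrial genome of the mouse encodes 37 genes: 13 mRNAs for subunits of the respiratory chain and the ATP synthase, 2 rRNAs and 22 tRNAs. They were taken as all rows of the deposited expression table whose symbol starts with mt-, which gave 37 of 47643 rows, and all were found by symbol on chromosome M of GENCODE vM21 on GRCm38. RNA was sequenced from the tibialis anterior, a lower-leg muscle, of 16 mice, with 4 mice for each combination of genotype (wild-type, WT, or UBR4 mKO) and age (6 or 24 months). All mice were labelled C57BL6/J and male, carried both copies of a floxed Ubr4 allele and received tamoxifen at 3 months of age. UBR4 mKO mice also carried a tamoxifen-inducible Cre under the ACTA1 promoter, which is active in skeletal myofibers, whereas the WT controls lacked Cre, so cells of the muscle other than myofibers are not targeted. Ubr4 encodes a large ubiquitin ligase of the N-degron pathway. The comparisons ask how the loss of UBR4 in muscle changes these transcripts at each age, how age changes them in each genotype, and whether the effect of UBR4 loss differs between ages. The samples are whole muscles, so fewer cells of a type and less RNA per cell cannot be told apart.

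Mitochondrial DNA is a small circle without introns that is copied into long RNAs from both of its strands. The tRNAs lie between most of the mRNAs and rRNAs, and their excision releases the other transcripts, most of which then receive short poly(A) tails. The mRNAs of 1 strand start out in the same precursor, and differences between the levels of separate mRNAs are attributed mainly to processing and stability. That reading does not extend to mt-Atp8 with mt-Atp6 or to mt-Nd4l with mt-Nd4. The genes of these pairs share 43 and 7 bases on the same strand without a tRNA between them, so 1 RNA can carry both. All mRNAs are counted per gene. The proteins made from them work together with subunits encoded in the nucleus: mt-Nd1 to mt-Nd6 and mt-Nd4l belong to complex I (NADH dehydrogenase), mt-Cytb to complex III, mt-Co1 to mt-Co3 to complex IV (cytochrome c oxidase), and mt-Atp6 and mt-Atp8 to complex V (ATP synthase). Skeletal muscle depends on them for sustained work.

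Of the 13 mRNAs, 12 are read in the plus direction of the reference and mt-Nd6 alone in the minus direction. Several places where mRNAs share bases matter for the values, because a read from shared bases cannot be assigned by sequence alone. The whole of mt-Atp8, chrM:7766-7969 on the plus strand, is shown in the first line with the 43 bases it shares with the start of mt-Atp6 in capitals. The whole of mt-Nd4l, chrM:9877-10173 on the plus strand, follows with the 7 bases shared with mt-Nd4 in capitals. The last 60 bases of mt-Nd5, chrM:13506-13565 on the plus strand, and of mt-Nd6, chrM:13552-13611 on the minus strand, are printed with the 14 bases that both cover on opposite strands in capitals. All are written 5′ to 3′ from the GENCODE vM21 transcripts.
mt-Atp8: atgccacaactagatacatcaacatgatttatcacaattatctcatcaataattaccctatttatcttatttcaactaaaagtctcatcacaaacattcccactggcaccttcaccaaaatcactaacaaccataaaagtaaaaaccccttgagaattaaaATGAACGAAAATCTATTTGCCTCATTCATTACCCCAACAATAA
mt-Nd4l: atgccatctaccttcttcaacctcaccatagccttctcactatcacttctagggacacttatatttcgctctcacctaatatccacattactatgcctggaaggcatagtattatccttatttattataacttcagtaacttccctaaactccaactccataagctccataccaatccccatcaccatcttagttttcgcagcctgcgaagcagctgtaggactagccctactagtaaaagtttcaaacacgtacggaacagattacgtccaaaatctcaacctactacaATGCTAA
mt-Nd5, end: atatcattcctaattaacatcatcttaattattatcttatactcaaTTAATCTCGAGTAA
mt-Nd6, end: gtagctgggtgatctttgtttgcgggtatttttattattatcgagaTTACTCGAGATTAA
A single base is also shared by mt-Atp6 and mt-Co3. The sources used here do not state whether strand was used in counting.

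Levels are given as TPM, a unit that divides the reads of a gene by its length and scales each sample to a sum of 1000000 over all rows. TPM keeps no depth, so the number of reads behind a value is unknown and no counting error can be given. The 13 mRNAs were above 0 in every sample. The rRNAs mt-Rnr1 and mt-Rnr2 and all 22 tRNAs were listed at 0 in all 16 samples. So were all 5933 nuclear rows of the rRNA, small nuclear, small nucleolar, micro and other short RNA classes, and all 7 RNAs without a poly(A) tail that were looked up by name. Histone mRNAs, most of which also lack a poly(A) tail, were not all at 0: of 67 histone genes 9 were at 0 in every sample, and the 67 summed to 361 to 405 TPM in 6-month-old WT, 571 to 656 in 6-month-old UBR4 mKO, 434 to 482 in 24-month-old WT and 432 to 551 TPM in 24-month-old UBR4 mKO samples. A listing at 0 therefore gives no level of the mitochondrial rRNAs and tRNAs in muscle, and the results below concern the 13 mRNAs, all of which passed the filter of a mean of at least 1 TPM.

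Nuclear copies of mitochondrial sequence can share reads with the mRNAs. Of the transcripts in the annotation that matched a member with at least 90% identity over at least 80% of their length, 15 were listed in the table, and together they matched 11 of the 13 mRNAs. For 5 of these copies the match was 100% identical, among them Gm10222, whose 294 bases all match mt-Nd4l. Of the 15 copies, 14 were listed at 0 in every sample. Gm4076, which matches mt-Nd5, reached at most 0.0915 TPM.

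The checks of the samples touched several results. Ubr4 was at 9.09 to 15.7 TPM in 6-month-old WT, 4.91 to 6.54 in 6-month-old UBR4 mKO, 17.0 to 21.1 in 24-month-old WT and 4.28 to 14.6 TPM in 24-month-old UBR4 mKO samples, so UBR4 mKO samples were below WT at each age without overlap. Although all mice were labelled male, Xist, an RNA of female cells, was at 0.71 to 23.8 TPM in the 8 samples from 6-month-old mice and at most 0.03 TPM in the 8 from 24-month-old mice, and replicate 4 of UBR4 mKO at 6 months had the Y-linked Ddx3y at 0.07 TPM. Age is therefore confounded with this difference between the samples, and the 2 cannot be told apart. The Y-linked genes also differed between the genotypes at 6 months: Eif2s3y was at 1.69 to 9.88 TPM in the 4 WT samples, at 14.5 to 18.4 TPM in replicates 1 to 3 of UBR4 mKO and at 0.08 TPM in replicate 4. With the mean level of the Y-linked genes as a covariate, the count of members called at 6 months on the TPM scale, given below, was 9, as without it, and that of shares within the set was 1 in place of 2. The myofiber genes Acta1, Tnnt3 and Ckm ranked 10, 13 and 18 by mean TPM. Replicate 3 of UBR4 mKO at 24 months stood apart within the mitochondrial mRNAs, as described below, and the counts of members called are also given without it and replicate 4 of UBR4 mKO at 6 months, together called the doubted samples, a choice made after seeing the data.

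The mitochondrial mRNAs dominated the table. They held 9 of the 10 highest and 11 of the 15 highest rows by mean TPM. In 6-month-old WT muscles, the members summed to 55.6, 52.6, 57.3 and 59.7% of TPM in the 4 samples. In 6-month-old UBR4 mKO muscles the sum was 49.8, 48.8, 47.0 and 46.1%. In 24-month-old WT muscles it was 49.5, 51.5, 51.7 and 47.8%, and in 24-month-old UBR4 mKO muscles 49.4, 49.8, 46.3 and 49.1%. The young WT samples were the highest 4 of the 16, and the other 3 groups overlapped. The means were 56.3% ± 3.01 (SD, n = 4), 47.9% ± 1.71, 50.1% ± 1.85 and 48.6% ± 1.57 in the order given.

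**Figure D1:**
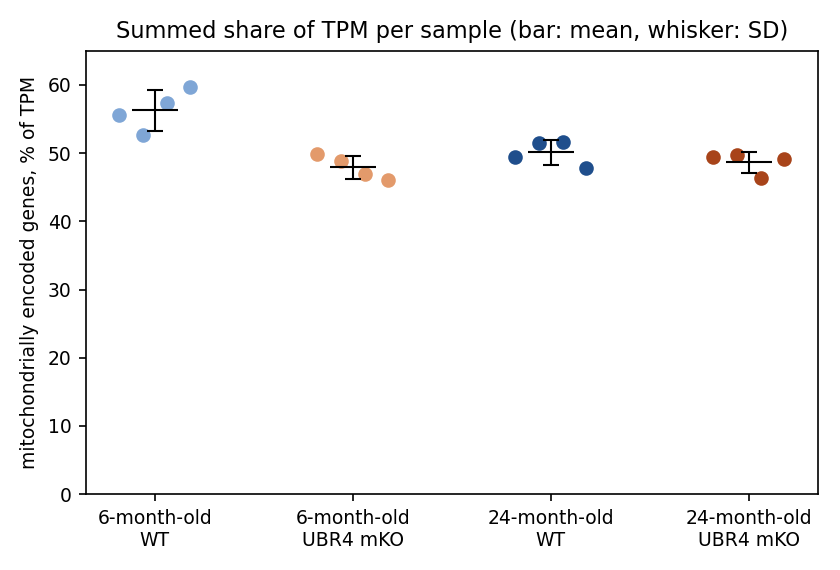
Share of TPM, in percent, summed over the mitochondrially encoded genes in each of the 16 samples (points) by group, with the group mean (bar) and SD (whisker, n = 4). The 4 samples from 6-month-old WT muscles lie between 52.6 and 59.7%, above the 12 others.

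The difference in summed share, UBR4 mKO minus WT, was thus -8.40 percentage points at 6 months and -1.47 points at 24 months. The difference with age, 24 minus 6 months, was -6.19 points in WT and 0.736 points in UBR4 mKO muscles, and the difference between the effects of UBR4 loss at the 2 ages was 6.93 points. These are values without a test, since the members are summed as a set. Leaving out any 1 sample kept the difference at 6 months between -9.64 and -7.25 points, and leaving out both doubted samples gave -7.78 points. The smaller differences depended on single samples. That at 24 months was -0.697 points without replicate 3 of UBR4 mKO and -0.942 without replicate 3 and -2.25 without replicate 4 of WT. The difference with age in UBR4 mKO muscles ran from 0.120 points without replicate 4 at 6 months to 1.51 points without replicate 3 at 24 months, and was 0.892 without both. The difference with age in WT muscles ran from -7.43 to -5.05 points without any 1 sample, and that between the effects at the 2 ages from 5.79 to 8.17 points and was 7.08 without both doubted samples. As a ratio of mitochondrial to nuclear TPM, the group means were 1.30 ± 0.157 (SD, n = 4), 0.921 ± 0.0632, 1.01 ± 0.0737 and 0.949 ± 0.0580. Since TPM sums to the same total in every sample, a lower mitochondrial share and a higher nuclear share are the same measurement, and which of them moved cannot be told apart.

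The mRNAs of complex IV took the largest part of the summed share. In 6-month-old WT muscles they held 24.9% ± 1.55 of all TPM (SD, n = 4), followed by the 7 mRNAs of complex I with 16.4% ± 0.821, the 2 of complex V with 10.9% ± 0.412, and mt-Cytb of complex III with 4.12% ± 0.232. In 6-month-old UBR4 mKO muscles the values were 21.3% ± 1.02, 13.2% ± 0.383, 9.65% ± 0.288 and 3.74% ± 0.0966 in the same order. In 24-month-old WT muscles they were 21.3% ± 0.908, 15.1% ± 0.662, 10.2% ± 0.552 and 3.53% ± 0.123. In 24-month-old UBR4 mKO muscles they were 21.5% ± 0.298, 13.8% ± 1.19, 9.88% ± 0.782 and 3.44% ± 0.121.

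The mRNAs spanned a 193-fold range of mean TPM. mt-Co1, the catalytic subunit of cytochrome c oxidase (chrM:5328-6872, plus strand), was the highest row of the table with a mean of 87854 TPM over the 16 samples. It was followed by mt-Co2 with 67592, mt-Co3 with 67091, mt-Atp6 with 60508, mt-Atp8 with 41152, mt-Nd1 with 38485, mt-Cytb with 37085, mt-Nd2 with 31418, mt-Nd4 with 26592, mt-Nd3 with 19675, mt-Nd4l with 17948 and mt-Nd5 with 11617 TPM. mt-Nd6 was the lowest with 454 TPM and rank 132 of all rows. Of the 12 pairs of neighbours in this order, 7 stood in the same order in all 16 samples. The other 5 pairs changed places in some samples: mt-Co2 was above mt-Co3 in 9 of 16, mt-Atp8 above mt-Nd1 in 11, mt-Nd1 above mt-Cytb in 12, mt-Nd4 above mt-Nd3 in 15 and mt-Nd3 above mt-Nd4l in 11.

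**Figure D2:**
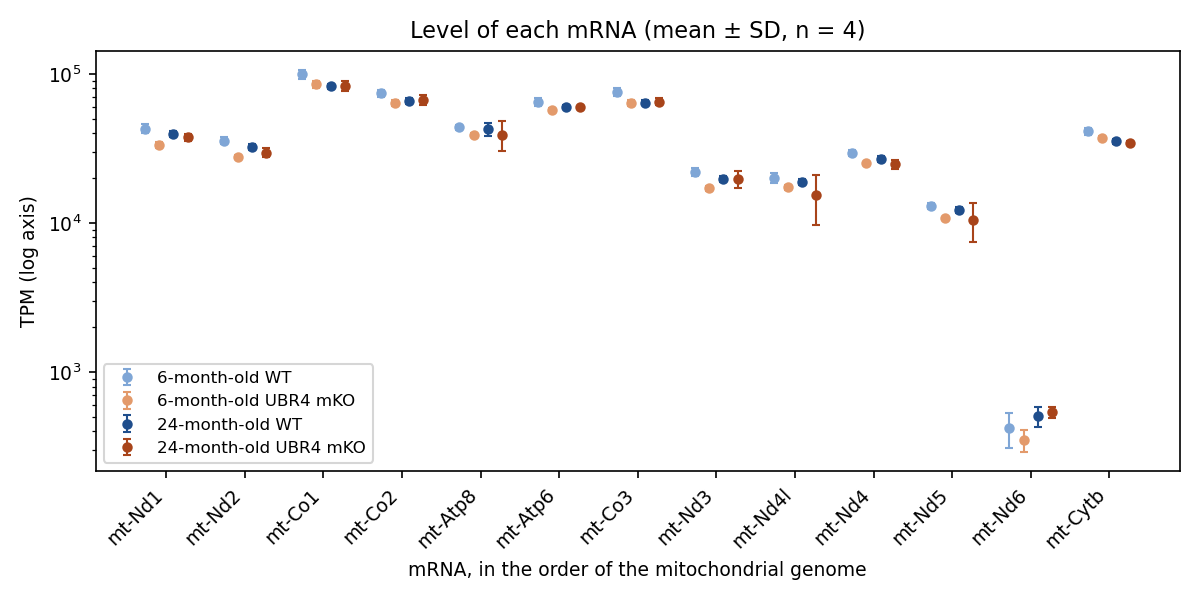
TPM on a log axis (mean ± SD, n = 4) of the 13 mRNAs in genome order, with 1 point per group. mt-Co1 is the highest in every group, and mt-Nd6, with group means from 350 to 538 TPM, lies far below the other 12.

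mt-Nd6 stands apart from its neighbour on the other strand. The genes share 14 bases, yet the mean of mt-Nd5 was 25.6 times that of mt-Nd6, and in single samples the ratio ran from 12.3 to 45.6. The lowest ratio was that of replicate 3 of UBR4 mKO at 24 months, described below, and the next lowest was 19.8. mt-Nd6 was also the mRNA with the widest spread among samples in 3 of the 4 groups. Its share within the set had a coefficient of variation of 31.0% in 6-month-old WT, 18.9% in 6-month-old UBR4 mKO and 11.6% in 24-month-old WT muscles, against medians over the 13 mRNAs of 1.74, 2.11 and 1.84%. If strand was not used in counting, reads of the shared bases could come from either gene. RNA copied from the other strand could then also add reads along the whole of mt-Nd6. How fully mt-Nd6 was captured in the mRNA libraries was not tested. These limits also hold for its changes with age given below.

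To separate the balance among the mRNAs from the level of the set, each value was also expressed as a share within the mitochondrial set. The spread of these shares among the samples of a group differed between the mRNAs and the groups. mt-Co1 took 17.7% ± 0.275 of the set in 6-month-old WT (SD, n = 4), 17.8% ± 0.429 in 6-month-old UBR4 mKO, 16.5% ± 0.312 in 24-month-old WT and 17.1% ± 0.835 in 24-month-old UBR4 mKO muscles. Complex IV as a whole took 44.2, 44.5, 42.5 and 44.2% in the same order, complex I 29.1, 27.6, 30.1 and 28.4%, complex V 19.4, 20.1, 20.4 and 20.3%, and complex III 7.31, 7.81, 7.05 and 7.08%. The median coefficient of variation over the 13 mRNAs was 1.84% in 24-month-old WT but 7.14% in 24-month-old UBR4 mKO muscles, and 4.34% in the latter without its replicate 3. The widest share in 24-month-old UBR4 mKO muscles was that of mt-Nd4l, with a coefficient of variation of 34.9%, and mt-Nd5 had 27.1%, mt-Atp8 20.5% and mt-Nd3 16.7%. Without replicate 3 these were 2.51, 5.27, 10.2 and 6.21% in the same order, and mt-Atp8 was the widest.

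Replicate 3 of UBR4 mKO at 24 months had a balance of its own. mt-Nd4l, a small membrane subunit of complex I, was at 6957 TPM in it and at 18618, 18452 and 17605 TPM in the other 3 samples of the group. mt-Nd5, a proton-pumping subunit of complex I, was at 5990 TPM against 12707, 12074 and 11370 TPM. mt-Atp8 was at 26928 TPM against 42145, 39843 and 47799 TPM. All 3 were below the range of the other 15 samples, and as shares of the set they were 1.501, 1.29 and 5.81%. mt-Co1 was also below that range, whereas mt-Co2, mt-Co3, mt-Atp6 and mt-Nd3 were above it with 15.9, 15.2, 13.2 and 5.06% of the set, and the other 5 mRNAs were within it. The mRNAs that stood low did not lie together. The low mt-Nd4l sits between mt-Nd3, which was high, and mt-Nd4, whose 4.91% was within the range. The ratio of mt-Nd4l to mt-Nd4 was 0.306 against 0.635 to 0.739 in the other 15 samples. mt-Nd4l and mt-Nd4 overlap on the same strand, as do mt-Atp8 and mt-Atp6. A ratio within either pair is therefore not taken as a difference between separate mRNAs. Across the 13 genes, the deviation from the other 3 samples of the group had a Spearman's rho of -0.0934 with transcript length, -0.0989 with GC content and -0.170 with position, values that describe 1 sample only. In the same sample the summed TPM of 75 nuclear respiratory chain subunits was 45751, against 35859 to 38631 in the other 3. Values without this sample are given for the counts of members called and for some other results, and the cause was not tested. The results for the nuclear subunits below include it.

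**Figure D3:**
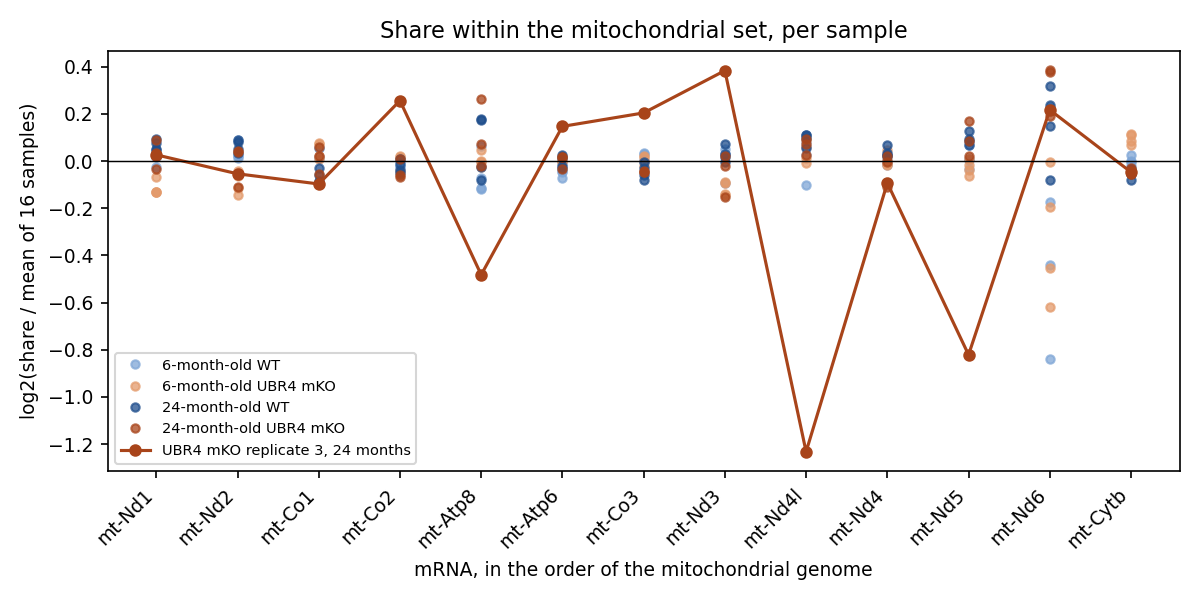
Share of each mRNA within the mitochondrial set in each sample, as log2 of the share over the mean of 16 samples (y axis), in genome order (x axis). The line joins the values of UBR4 mKO replicate 3 at 24 months, which falls below all others at mt-Atp8, mt-Nd4l and mt-Nd5 and rises above them at mt-Co2 and mt-Nd3, and mt-Nd6 has the widest spread among the other 15.

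At 6 months, the mitochondrial mRNAs were lower in UBR4 mKO than in WT muscles. The largest differences were those of mt-Nd1, mt-Nd2 and mt-Nd3, subunits of the membrane arm of complex I, whose levels in UBR4 mKO muscles were 0.780, 0.779 and 0.783 times those of WT muscles. Genes were tested with limma on log2(TPM + 0.1) over the 10628 genes with a mean of at least 1 TPM, and a gene is called where its Benjamini-Hochberg adjusted p-value over all of them is below 0.05. By this test 9 of the 13 mRNAs fell and 0 rose. Over all genes tested, 44.9% were called at 6 months, but almost all of these were higher in UBR4 mKO muscles, and 1.15% of genes were called lower. The log2 fold change was negative for 13 of 13 mRNAs, from -0.36 to -0.14 with a median of -0.23, whereas the median of all genes was 0.33. Because TPM has a fixed sum, a lower mitochondrial share by itself raises the nuclear values. With the nuclear genes alone rescaled to a fixed sum, the median of all genes was 0.08. The groups did not overlap for 11 of the 13 mRNAs, all lower, and for 39.9% of all genes.

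mt-Nd1 (chrM:2751-3707, plus strand) was at 43004, 39137, 43902 and 45964 TPM in the WT and at 34458, 35218, 32484 and 31886 TPM in the UBR4 mKO samples, a log2 fold change of -0.36 (SE 0.06, limma adjusted p = 0.000494). mt-Nd2 (chrM:3914-4951, plus strand) was at 36536, 33128, 35933 and 37310 TPM in WT and at 27866, 28843, 26854 and 27697 TPM in UBR4 mKO samples, also a change of -0.36 (SE 0.06, limma adjusted p = 0.000462). mt-Nd3 (chrM:9459-9806, plus strand) was at 22373, 20829, 20861 and 23646 TPM in WT and at 17548, 17715, 17150 and 16190 TPM in UBR4 mKO samples, a change of -0.35 (SE 0.08, limma adjusted p = 0.00293). In all 3 genes, every UBR4 mKO sample was below every WT sample.

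The other 6 mRNAs that fell included those of cytochrome c oxidase. mt-Co1 was at 97226, 91885, 102978 and 107254 TPM in WT and at 90938, 85707, 85354 and 80091 TPM in UBR4 mKO samples (log2 fold change -0.22). mt-Co2, which carries a copper centre of the enzyme, was at 73909, 68140, 75219 and 78544 TPM in WT and at 67056, 65782, 63512 and 59744 TPM in UBR4 mKO samples (-0.21). mt-Co3 was at 75277, 69357, 76047 and 80667 TPM in WT and at 66888, 65230, 61159 and 61015 TPM in UBR4 mKO samples (-0.24). The groups did not overlap for any of the 3, but replicate 2 of WT lay close to the highest UBR4 mKO sample in each. mt-Nd4, mt-Atp6 and mt-Cytb fell by 0.23, 0.18 and 0.14 on the log2 scale, the last with a limma adjusted p of 0.0395. Not called were mt-Nd5 with -0.27, mt-Nd6 with -0.24, mt-Nd4l with -0.21 and mt-Atp8 with -0.17, whose standard errors of 0.12 to 0.21 were the widest.

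The direction at 6 months was the same as TPM, after median-of-ratios scaling and with the nuclear genes alone rescaled, but its size was not. The median gene moved by 0.33 on the TPM scale and by -0.02 after median-of-ratios scaling, on which 12 of the 13 mRNAs fell and the 13 changes ran from -0.71 to -0.49, while 10.2% of all genes fell. With the nuclear genes alone rescaled to a fixed sum, 10 fell, against 5.97% of all genes. On the TPM scale the count of 9 was 3 with no filter on low values, where mt-Co1, mt-Co2, mt-Atp6, mt-Co3, mt-Nd4 and mt-Cytb lost their calls. It was 8 by Dunn's test, where mt-Co1, mt-Co3 and mt-Cytb lost theirs and 2 other mRNAs were called. With no variance trend mt-Co2, mt-Atp6 and mt-Cytb were not called. The count was 11 without both doubted samples, and without any 1 sample it ran from 6, without replicate 4 of WT at 6 months, to 12, without replicate 3 of UBR4 mKO at 24 months. The call of mt-Co1 was lost without replicate 4 of WT at 6 months, that of mt-Co2 without replicate 4 of either genotype at 6 months, and that of mt-Cytb without replicate 1, 3 or 4 of WT or 2, 3 or 4 of UBR4 mKO at 6 months, or without replicate 1 of WT at 24 months. Markers of other cells moved in the same comparison: 4 of 4 leukocyte markers tested (Cd68, Lyz2, Adgre1 and Csf1r) rose with a median log2 fold change of 2.03, and the summed TPM of the 7 markers listed was 13.9 to 20.5 in WT and 46.8 to 160 in UBR4 mKO samples. The T cell marker Cd3e was at or near 0 in both groups. The 8 fast fiber markers summed to 74288 to 82931 TPM in WT and 96580 to 106473 TPM in UBR4 mKO samples, and 5 of them rose. Endothelial markers summed to 73.0 to 99.5 TPM in WT and 114 to 123 TPM in UBR4 mKO samples, with 3 of 6 risen, and adipocyte markers to 281 to 319 and 389 to 418 TPM, with 1 of 3 tested risen. Of 6 fibroblast markers 3 rose, with sums of 180 to 330 and 248 to 470 TPM that overlapped. The 67 histone genes named above also summed higher, at 571 to 656 TPM in UBR4 mKO against 361 to 405 TPM in WT samples. The part of these differences in the result was not tested.

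**Figure D4:**
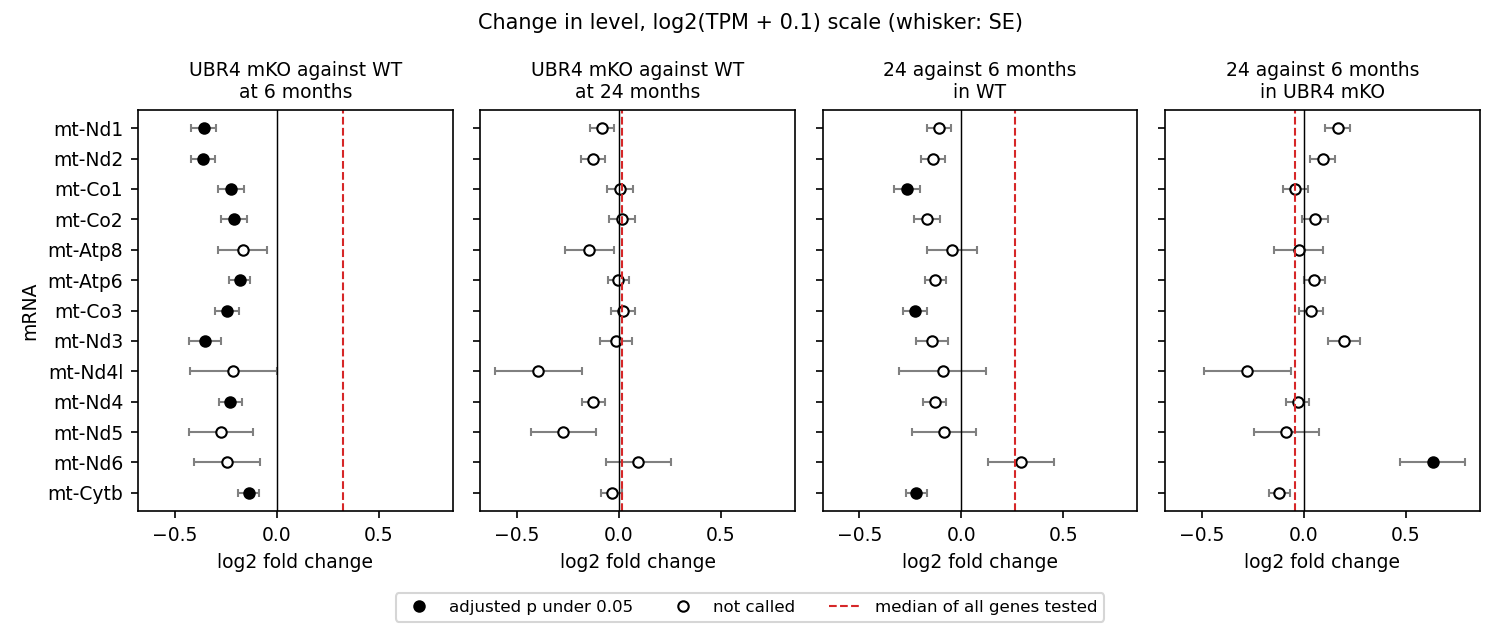
Log2 fold change (x axis, on the log2(TPM + 0.1) scale; whisker, SE) of each of the 13 mRNAs in 4 comparisons, with filled points for an adjusted p below 0.05. At 6 months all 13 points lie below 0 and the dashed median of all genes at 0.33; at 24 months 0 points are filled, and mt-Nd6 is the filled point on the right for age in UBR4 mKO muscles.

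Within the mitochondrial set, the shares of 2 complex I mRNAs, mt-Nd1 and mt-Nd2, were lower in UBR4 mKO muscles at 6 months. They were the only 2 of the 13 shares that fell by limma, and 0 rose. The share of mt-Nd1 was 7.74, 7.44, 7.66 and 7.69% in WT and 6.91, 7.22, 6.92 and 6.92% in UBR4 mKO samples (log2 fold change -0.13, SE 0.05, limma adjusted p = 0.0314). The share of mt-Nd2 was 6.57, 6.30, 6.27 and 6.25% in WT and 5.59, 5.91, 5.72 and 6.01% in UBR4 mKO samples (-0.13, SE 0.06, limma adjusted p = 0.0423). Neither gene's groups overlapped. On this scale, on which nuclear genes are expressed relative to the mitochondrial sum, 79.8% of all genes were called, so the p-values are adjusted less strictly than on the TPM scale. The groups did not overlap for 4 mRNAs, with mt-Nd1 and mt-Nd2 lower and mt-Atp6 and mt-Cytb higher in UBR4 mKO muscles, and for 58.1% of all genes. The share of mt-Cytb was 7.21 to 7.44% in WT and 7.67 to 7.91% in UBR4 mKO muscles without being called (log2 fold change 0.10, limma adjusted p = 0.081).

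These calls depended on single samples and on the fit. Their count was 0 with no filter on low values, with no variance trend, with the replicate block and by Dunn's test. It was 4 with array weights, which weight samples by their spread. Leaving out samples, it was 0 without any 1 of replicates 1, 3 and 4 of either genotype at 6 months, 1 without replicate 2 of either genotype at that age or without any 1 of the 24-month-old WT samples, 4 without replicate 3 of UBR4 mKO at 24 months and 3 without both doubted samples.

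At 24 months, no difference between UBR4 mKO and WT muscles passed the test for any of the 13 mRNAs. Ubr4 itself was at 17.2, 17.0, 17.8 and 21.1 TPM in WT and at 10.1, 14.6, 4.28 and 7.63 TPM in UBR4 mKO samples at this age, so that replicate 2 of UBR4 mKO lay near the lowest WT sample. By limma 0 were called, with 2 at an unadjusted p below 0.05, and 0 by Dunn's test, against 0.63% of all genes by limma. The log2 fold changes ran from -0.40 for mt-Nd4l, whose standard error was 0.21, to 0.09 for mt-Nd6, with 9 below 0 and a median of -0.04. The values of mt-Nd4l and of mt-Nd5, which was at -0.27, rested on replicate 3 of UBR4 mKO, without which they were -0.05 and -0.02. Without this sample the 13 changes ran from -0.10 for mt-Nd3 to 0.14 for mt-Nd6, with 10 below 0 and a median of -0.02, and 0 were called by limma, with 0 at an unadjusted p below 0.05, as also without both doubted samples. mt-Nd1 was at 39522, 40369, 41793 and 37557 TPM in WT and at 38309, 40132, 35751 and 36279 TPM in UBR4 mKO samples, and mt-Nd2 at 32404, 33921, 33125 and 30252 TPM and at 31404, 31722, 27594 and 28107 TPM. Both genes overlapped between the genotypes. The groups overlapped for all 13 mRNAs, whereas they did not for 5.8% of all genes. As shares of the set 0 mRNAs were called by limma, 0 were at an unadjusted p below 0.05 and 0 were called with Dunn's test, against 0.329% of all genes by limma. Only mt-Nd4 had groups that did not overlap, with a lower share in UBR4 mKO muscles (4.85 to 5.31% against 5.32 to 5.50%), and 5.15% of all genes did so. Leukocyte markers summed to 26.6 to 55.1 TPM in WT and 66.1 to 284 TPM in UBR4 mKO samples at this age, and adipocyte markers to 212 to 277 and 299 to 351 TPM, with 1 of 3 adipocyte markers tested risen. Their part in these values, and that of the level of Ubr4, was not tested.

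The effect of UBR4 loss was tested for a difference between the ages with the interaction term. For 12 of the 13 mRNAs the log2 fold change at 24 months was higher than at 6 months, with differences of up to 0.34 on the log2 scale for mt-Nd3 and mt-Nd6. The exception was mt-Nd4l (-0.18), which without replicate 3 of UBR4 mKO at 24 months was at 0.16, so that all 13 were then higher. By limma 0 of them passed, with 7 at an unadjusted p below 0.05 and a lowest adjusted p of 0.0662 for mt-Nd1 (0.28, SE 0.08). Of all genes, 4.7% were called. The count depended on single samples, on their weights and on the scaling: it was 7 without replicate 2 of WT at 6 months, 3 without replicate 3 and 1 without replicate 4 of UBR4 mKO at 24 months, 0 without both doubted samples (lowest limma adjusted p = 0.0708, with 7 at an unadjusted p below 0.05), 7 with array weights and 1 on the scale of the nuclear genes, on which mt-Nd3 had an interaction of 0.55. For the shares within the set, 0 were called and 0 were at an unadjusted p below 0.05 by limma, against 28.7% of all genes.

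With age, WT muscles had lower levels of some mitochondrial mRNAs. At 24 against 6 months, 3 of the 13 fell and 0 rose by limma, while 25.1% of all genes were called, most of them higher, and 1.07% were called lower. mt-Co1 was at 83850, 85449, 84161 and 77860 TPM at 24 months, all below the 91885 to 107254 TPM at 6 months (log2 fold change -0.27, SE 0.06, limma adjusted p = 0.00886). mt-Co3 was at 65223, 66712, 64697 and 60585 TPM, below the 69357 to 80667 TPM at 6 months (-0.23, SE 0.06, limma adjusted p = 0.0128). mt-Cytb, the only mitochondrially encoded subunit of complex III, was at 35382, 36503, 35772 and 33600 TPM at 24 months and at 40074, 38471, 42626 and 43520 TPM at 6 months (-0.22, SE 0.05, limma adjusted p = 0.00822). These were also the 3 mRNAs whose groups did not overlap, as was the case for 25.9% of all genes. The log2 fold change was below 0 for 12 mRNAs with a median of -0.13 over the 13, against 0.26 for all genes, and mt-Nd6 was the exception with 0.29 (SE 0.16, not called).

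This count moved with the samples, their weights, the test and the scaling. It was 9, of which 8 lower, without replicate 2 of WT at 6 months, 8 without replicate 3 of UBR4 mKO at 24 months, which enters through the common estimate of the spread, 8 without both doubted samples, 5 after median-of-ratios scaling, where 9.77% of all genes were called, 8 on the scale of the nuclear genes, where 10% were, and 10 with array weights. It was lower in other fits, at 2 without replicate 4 of WT at 6 months, 0 with no filter on low values and 0 by Dunn's test. The call of mt-Co3 was lost without replicate 4 of WT at either age. In the same comparison 6 of 8 fast fiber markers rose and 2 fell, and their summed TPM was 74288 to 82931 at 6 months and 91952 to 101970 at 24 months. Of the slow fiber markers, 2 of 8 fell and 1 rose, with a median log2 fold change of -0.46, and their summed TPM was 113 to 213 at 6 months and 80.7 to 102 at 24 months. Slow fibers are rich in mitochondria. Leukocyte markers summed to 26.6 to 55.1 TPM at 24 months, against 13.9 to 20.5 at 6 months, and 2 of 4 rose. Adipocyte markers summed to 212 to 277 TPM at 24 months, against 281 to 319 at 6 months, with 1 of 3 tested fallen, and 2 of 6 fibroblast markers fell, with sums that overlapped. The part of these markers and of the Xist difference named above in the result was not tested.

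In UBR4 mKO muscles, 1 mRNA rose with age and 0 fell, against 6.29% of all genes called. It was mt-Nd6 (chrM:13552-14070, minus strand), at 328, 286, 422 and 363 TPM at 6 months and at 582, 512, 485 and 574 TPM at 24 months (log2 fold change 0.63, SE 0.16, limma adjusted p = 0.0256). All 4 samples at 24 months were above all 4 at 6 months. In WT muscles it was at 369, 556, 458 and 301 TPM at 6 months and at 494, 547, 582 and 407 TPM at 24 months, and these groups overlapped. The difference between the genotypes in this change was not called (interaction 0.34, SE 0.23, limma adjusted p = 0.285). The groups did not overlap for 3 mRNAs, mt-Cytb lower and mt-Nd1 and mt-Nd6 higher at 24 months, and for 12.9% of all genes. The rise of mt-Nd6 kept its call in the fit without both doubted samples but lost it without replicate 1 or 2 of UBR4 mKO at 6 months or replicate 1 or 4 at 24 months, where the adjusted p by limma was 0.0587 to 0.0942. By Dunn's test it was not called, and with array weights 2 mRNAs were called. In the same comparison endothelial markers summed to 114 to 123 TPM at 6 months and 59.7 to 94.7 TPM at 24 months, with 3 of 6 fallen, and adipocyte markers to 389 to 418 and 299 to 351 TPM, with 1 of 3 tested fallen. Of 6 fibroblast markers 3 fell, and of 8 slow fiber markers 2 fell, with a median of -0.95. Of 8 fast fiber markers 2 rose and 3 fell. The part of these markers in the result was not tested.

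The share of mt-Nd6 within the set was called higher with age in both genotypes by limma. In WT muscles it was 0.0664, 0.106, 0.0800 and 0.0505% at 6 months and 0.0998, 0.106, 0.112 and 0.0852% at 24 months (log2 fold change 0.46, SE 0.17, limma adjusted p = 0.0276), and replicate 2 at 6 months lay among those at 24 months. On this scale the median of all genes in WT muscles rose by 0.43. In UBR4 mKO muscles it was 0.0659, 0.0587, 0.0898 and 0.0788% at 6 months and 0.118, 0.103, 0.105 and 0.117% at 24 months without overlap (0.61, SE 0.17, limma adjusted p = 0.0425). It was the only mRNA called in either comparison, against 59.8% of all genes in WT and 4.33% in UBR4 mKO muscles. With so many genes called in WT, its p-values are adjusted less strictly than on the TPM scale, where mt-Nd6 was not called in WT. Among the 12 other mRNAs, groups did not overlap in WT for mt-Co1, mt-Co3 and mt-Cytb, which were lower, and mt-Nd1, which was higher at 24 months, while 32.6% of all genes did so. In UBR4 mKO muscles the 3 mRNAs without overlap included mt-Nd6, against 11.6% of all genes. Both calls were lost with no filter on low values and by Dunn's test, and that in UBR4 mKO muscles also with no variance trend and with the Y-linked covariate. Without both doubted samples the call of mt-Nd6 was lost in UBR4 mKO muscles (0.68, limma adjusted p = 0.0563), and without replicate 4 of WT at 6 months the change in WT was 0.28 (limma adjusted p = 0.147). The call in WT was also lost without replicate 1 of WT at 6 months or replicate 1, 2 or 3 of WT at 24 months, and that in UBR4 mKO muscles without replicate 1, 2 or 4 of UBR4 mKO at either age or replicate 1 of WT at 24 months. Without replicate 3 of UBR4 mKO at 24 months, 2 shares were called for age in WT and 3 for age in UBR4 mKO muscles.

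**Figure D5:**
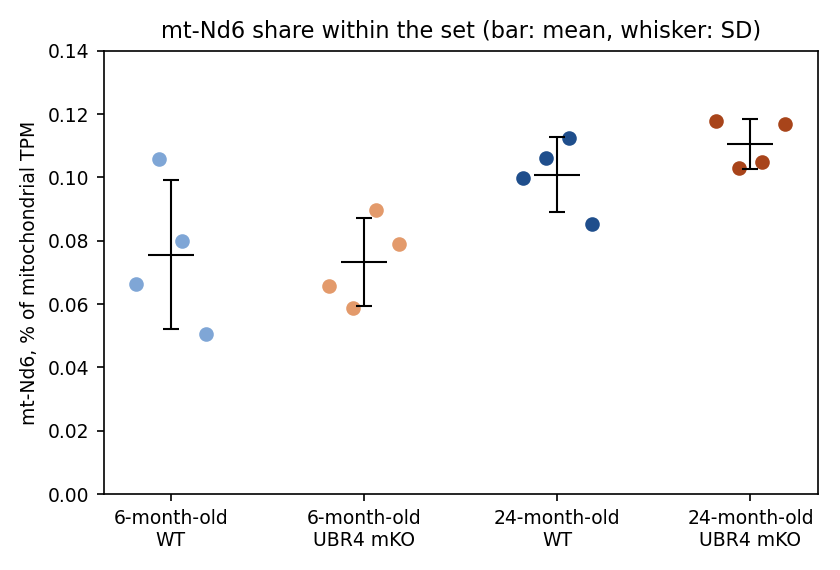
Share of mt-Nd6 within the mitochondrial set, in percent, in each of the 16 samples (points) by group, with mean (bar) and SD (whisker, n = 4). The 24-month-old UBR4 mKO samples lie between 0.103 and 0.118%, above the 0.0587 to 0.0898% of the 6-month-old ones, whereas the WT samples of the 2 ages overlap.

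The transcripts described here are made, processed, stabilised and translated by proteins encoded in the nucleus, and 75 of 83 listed genes for these steps were tested. At 6 months 44 of them rose in UBR4 mKO muscles and 1 fell, while 43.7% of all genes tested rose and 1.15% fell. They had a median log2 fold change of 0.34 against 0.33 for all genes. The counts were 7 of 9 risen for transcription, 19 of 27 for RNA processing and modification, 4 of 8 for RNA stability and decay, 2 of 9 for replication of mitochondrial DNA, 10 of 12 for translation and 2 of 10 for nuclear regulators. On the scale of the nuclear genes 7 rose and 4 fell, with a median of 0.09 against 0.08 for all genes, of which 9.06% rose and 5.97% fell. Cdk5rap1, which modifies mitochondrial tRNAs, rose by 1.11 on the log2 scale (from 3.93 ± 0.967 to 8.45 ± 1.07 TPM, SD, n = 4), Trub2, a pseudouridine synthase, by 0.70 and Trmu, a tRNA thiouridylase, by 0.61. Cdk5rap1 and Trub2 also rose on the scale of the nuclear genes, by 0.87 and 0.45. Mgme1, a nuclease of mitochondrial DNA replication, fell by 0.35 on the TPM scale and by 0.61 on that of the nuclear genes, from 6.45 ± 0.445 to 5.08 ± 0.881 TPM.

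Fewer nuclear genes of this list were called in the other comparisons, as was the case for all genes. At 24 months 0 of 75 were called by limma, against 0.63% of all genes. With age in WT muscles 10 of 75 rose and 0 fell, while 24% of all genes rose, and the largest rises were those of Pprc1, a coactivator related to PGC-1α, with 0.61, Nsun2, an RNA methyltransferase, with 0.57, and Elac2, which cleaves the 3′ ends of tRNAs from the precursor, with 0.53. In UBR4 mKO muscles 1 of 75, Mgme1, rose with age by 0.58, against 6.29% of all genes called. The interaction was called for 1 of 75, against 4.7% of all genes, and this was Elac2 (-0.60, SE 0.15, limma adjusted p = 0.0331), whose level was 8.80 ± 1.24 TPM in 6-month-old WT (SD, n = 4), 12.8 ± 0.618 in 6-month-old UBR4 mKO, 12.7 ± 1.23 in 24-month-old WT and 12.3 ± 1.04 TPM in 24-month-old UBR4 mKO muscles.

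The nuclear-encoded subunits of the same complexes offer a comparison with the partners of the mitochondrial proteins. Of 75 subunits tested, 23 rose and 0 fell at 6 months on the TPM scale, while 43.7% of all genes rose. They had a median log2 fold change of 0.12 against 0.33 for all genes and -0.23 for the mitochondrial mRNAs. On the scale of the nuclear genes 0 rose and 16 fell, with a median of -0.13 against 0.08 for all genes, of which 9.06% rose and 5.97% fell. With age in WT muscles 1 rose and 5 fell with a median of -0.10 against 0.26 for all genes, of which 24% rose and 1.07% fell. On the scale of the nuclear genes 53 of 75 fell with a median of -0.30 against 0.08 for all genes, of which 4.16% fell. On the TPM scale the median of the nuclear subunits lay between those of the mitochondrial mRNAs and of all genes in both of these comparisons, and at 6 months its sign changed with the scale. It did not lie between them in the other two comparisons of groups. At 24 months it was 0.16, with 2 of 75 risen, against -0.04 for the mitochondrial mRNAs and 0.01 for all genes, and with age in UBR4 mKO muscles it was -0.06, with 3 of 75 fallen, against a mitochondrial median of 0.03 and -0.04 for all genes. For the interaction it was 0.04, between 0.22 for the mitochondrial mRNAs and -0.31 for all genes. The last 3 medians of the subunits include replicate 3 of UBR4 mKO at 24 months and were not recomputed without it. The summed TPM of the subunits was 45751 in that sample, against 35859 to 38631 in the rest of its group.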

How the data were processed

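RNA from tibialis anterior muscles of 16 mice was made into mRNA libraries, per the labels, and sequenced. The authors aligned trimmed and quality-filtered read pairs to GRCm38 (mm10) with CLC Genomics Workbench and deposited TPM values per gene. Which annotation was used, how reads matching several places were counted and whether strand was used are not given in the sources used here, and the methods and the labels name different library kits. Every sample sums to 1000000 TPM, so depth is unknown. It is not stated here whether the samples of a group share a litter or cage, and p-values measure only the spread between these samples.

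With limma 3.58.1 (R 4.3.3), log2(TPM + 0.1) was fitted for the 10628 genes whose TPM averaged at least 1, using 1 coefficient per group, a trended variance and Benjamini-Hochberg adjustment over all genes tested (threshold 0.05). Fold changes come from this scale and understate those of low genes. For shares within the set, log2 of each sample's summed mitochondrial TPM was subtracted before the same fit. For the scale of the nuclear genes, these were rescaled to sum to 1000000, and the mitochondrial genes were divided by the same factor. limma was used in place of the Kruskal-Wallis and Dunn's tests of the methods. Dunn's pairwise test on ranks was run as an alternative, without the Kruskal-Wallis test, and adjusted over all genes tested. The script was checked on simulated data.

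The members and gene lists were chosen with earlier results of these data known. Values in every sample are given for the 3 highest mRNAs, for mt-Nd6 and for up to 3 called members in each direction per comparison and scale. From the nuclear list, up to 3 called genes in each direction are named per comparison. Genes named in the sample checks, as markers, as nuclear copies or because they stood out in replicate 3 of UBR4 mKO at 24 months were chosen after their values were seen. Positions and sequences are from GENCODE vM21 on GRCm38, and nuclear copies were found with BLAST 2.17.0. matplotlib 3.10.9 (Python 3.11.15) drew the figures. The replicate numbers of the labels do not pair samples: of 24 pairs with the same number, 4 had a correlation of deviations over 0.1 (range -0.35 to 0.18). Alternatives covered pseudocount, filter, scaling, variance, weights, covariates, test and samples left out.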

Additional observations from a re-analysis of the deposited data

Results flagged for a closer look

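Among 120 groups of 4 samples tested for a single sample far from the other 3, by Dixon's test at the 95% level, 10 were found, and chance gives about 6. Replicate 3 of UBR4 mKO at 24 months accounted for 4 of them: mt-Nd4l at 6957 TPM and 1.501% of the mitochondrial set, against 17605 to 18618 TPM and 3.59 to 3.77% in the other 3 samples, and mt-Co3 at 70597 TPM and 15.2% of the set, against 63033 to 63782 TPM and 12.8% in the others. Replicate 4 of UBR4 mKO at 6 months had the lowest share of mt-Co2, at 12.97% against 13.5%, and the highest share of the complex V mRNAs, at 20.5% against 19.98 to 20.07%. Replicate 2 of that group had the highest share of mt-Nd1, at 7.22% against 6.91 to 6.92%, and replicate 1 had the highest mt-Nd5, at 11079 against 10591 to 10657 TPM. Replicate 1 of WT at 6 months had the highest share of mt-Nd2, at 6.57% against 6.25 to 6.30%, and the lowest mt-Atp8, at 41672 against 44303 to 44734 TPM.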

How the results depend on the processing

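Depth cannot be read from TPM, and with 4 samples a group single samples decide many calls. The counts that follow are members called of 13. On the TPM scale at 6 months, the count of 9 was 3 with no filter on low values. For age in WT, 3 became 0 with no filter, 5 with median-of-ratios scaling, 8 when rescaled without the mitochondrial genes, 10 with array weights and 0 with Dunn's test. It became 8 without both doubted samples, a choice made after seeing the data. For age in UBR4 mKO, 1 became 2 with array weights and 0 with Dunn's test. For the interaction, 0 became 1 without the mitochondrial genes and 7 with array weights. For the shares within the set at 6 months, 2 became 0 with no filter, no variance trend, the replicate block or Dunn's test, 4 with array weights and 1 with a Y-linked covariate. For age in WT, 1 became 0 with no filter or Dunn's test, 4 with array weights, and 2 with only the groups compared or without both doubted samples. For age in UBR4 mKO, 1 became 0 with no filter, no trend, the Y-linked covariate, Dunn's test or without both doubted samples, and 3 with array weights. For the interaction, 0 became 1 with array weights.

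Leaving out each sample in turn, the counts ran from 6 to 12, 0 to 0, 2 to 9, 0 to 1 and 0 to 7 on the TPM scale, in the order 6 months, 24 months, age in WT, age in UBR4 mKO and interaction. For the shares within the set they ran from 0 to 4, 0 to 0, 0 to 2, 0 to 3 and 0 to 0. The summed share differed by -9.64 to -7.25, -2.25 to -0.697, -7.43 to -5.05, 0.120 to 1.51 and 5.79 to 8.17 percentage points. The replicate block gave 8 called members at 6 months on the TPM scale and moved no other count than that named above. Among the called members recomputed under each alternative, and the summed shares with samples left out, 0 changed direction. The other alternatives for the summed shares touched only rows at or near 0 or repeated the main values, so they could not change it. The median of the nuclear respiratory chain subunits, compared on the TPM scale and on that of the nuclear genes, did change direction at 6 months. Leaving out the rRNAs and tRNAs changed nothing, since they are listed at 0. Dunn's test and the fit of only the groups compared were not run for the interaction.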
